A study of Mus musculus with 6 samples.

Results

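The septins of mouse CD8+ T cells are described here across 3 vehicle-treated and 3 AOA-treated cultures. The 10 septin genes were chosen by name, as the rows of a table of 11922 genes whose symbol had been turned into a date in September, and each was then matched by its Entrez number to a septin in RefSeq. The family was selected with its AOA against vehicle differences in these 6 libraries already known, so those differences are given as a description. Whether a septin passed the threshold of the fit over all genes is stated, but no p is given for a septin and nothing is read from its call. RefSeq lists 13 mouse septin genes, and Septin3, Septin12 and Septin14 had no row in the table. The deposited symbols included 18 dates, of which 8 were dates in March and were not used.

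RNA was sequenced from splenic CD8+ T cells of C57BL/6J mice, sorted on magnetic columns and activated with anti-CD3 and anti-CD28 beads. All cultures received recombinant human IL-2 at 100 units/ml and were lysed on day 7. The vehicle group received water and the AOA group 0.25 mM aminoxyacetic acid, an inhibitor of enzymes that use pyridoxal phosphate, the active form of vitamin B6, from activation until lysis. Donors 1, 2 and 3 each gave cells to a culture of either group, and their age and sex are not given in the labels. The cultures held polyclonal T cells grown outside the animal.

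Septins are GTP-binding proteins that join end to end into rods and filaments beneath the plasma membrane. A rod is built from members of the SEPT2, SEPT6 and SEPT7 homology groups, with or without a member of the SEPT3 group, and members of 1 group can often replace each other. Septin filaments scaffold the contractile ring and the midbody of dividing cells, and in T cells they lie along the cortex, where they are known to contribute to its stiffness and to migration.

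Total counts were 12881962 to 18934869 with vehicle and 18696114 to 21997078 with AOA. The vehicle library of mouse 2 and the AOA library of mouse 1 stood apart from their group. Mean chi-square per gene between replicates was 10.02 for vehicle 1 against 3 and 10.53 for AOA 2 against 3, but 55.1 to 71.1 for the 4 pairs that held either of these libraries. Summed CPM (the usual depth-scaled counts, here on TMM-normalised library sizes) of the 5 T cell markers found of 6 were 2908 to 3737 with vehicle and 3994 to 4644 with AOA. Of these, Cd8a and Cd8b1, the markers of CD8 cells, were called higher (1.03 and 0.64 on the log2 scale). Cd3d, Cd3e and Cd3g, which other T cells share, were not called (-0.13, -0.27 and -0.31). Cd4 was at 63.1 to 119 CPM with vehicle and 5.65 to 12.2 with AOA. The 2 natural killer markers summed to 20.1 to 114 and 3.53 to 11.6 CPM, almost all of it Klrb1c, with 111 CPM in vehicle 2 and Ncr1 at 0 in vehicle 1 and 3. The 3 myeloid markers found of 5 summed to 40.8 to 54.2 and 0.873 to 3.33 CPM, almost all of it Itgam, while Lyz2 was at 0 in vehicle 1 and 3. B cell markers summed to 12.6 to 16.6 and 22.6 to 30.7 CPM, mostly Cd79b. Of 4 platelet markers only Itga2b had a row, at 2.03 to 4.84 and 0.151 to 0.581 CPM, and none of the 3 erythroid or 3 fibroblast markers had one. The part of these markers in the septin differences was not tested. In bulk RNA, fewer cells of a type and less RNA per cell cannot be told apart.

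With AOA, septin transcripts moved in both directions. Septin2, Septin7, Septin8, Septin10 and Septin11 were past the threshold and higher, with folds between 1.43 and 6.65, and Septin4 was past it and lower, 4.15-fold. Septin1, Septin5, Septin6 and Septin9 were not past it. A gene counts as called (higher or lower) when its Benjamini-Hochberg adjusted p in edgeR was under 0.05. Thus 6 of 10 septins (60%) were called, beside 53.0% of the 11759 genes tested, with 5 higher (26.2% of all genes were) and 1 lower (26.8% were). In 7 septins the 3 vehicle and 3 AOA libraries did not overlap, as in 62.1% of all genes. The median log2 fold change was 0.40 over the septins and -0.02 over all genes. All 10 septins passed the filter on low counts.

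**Figure D1:**
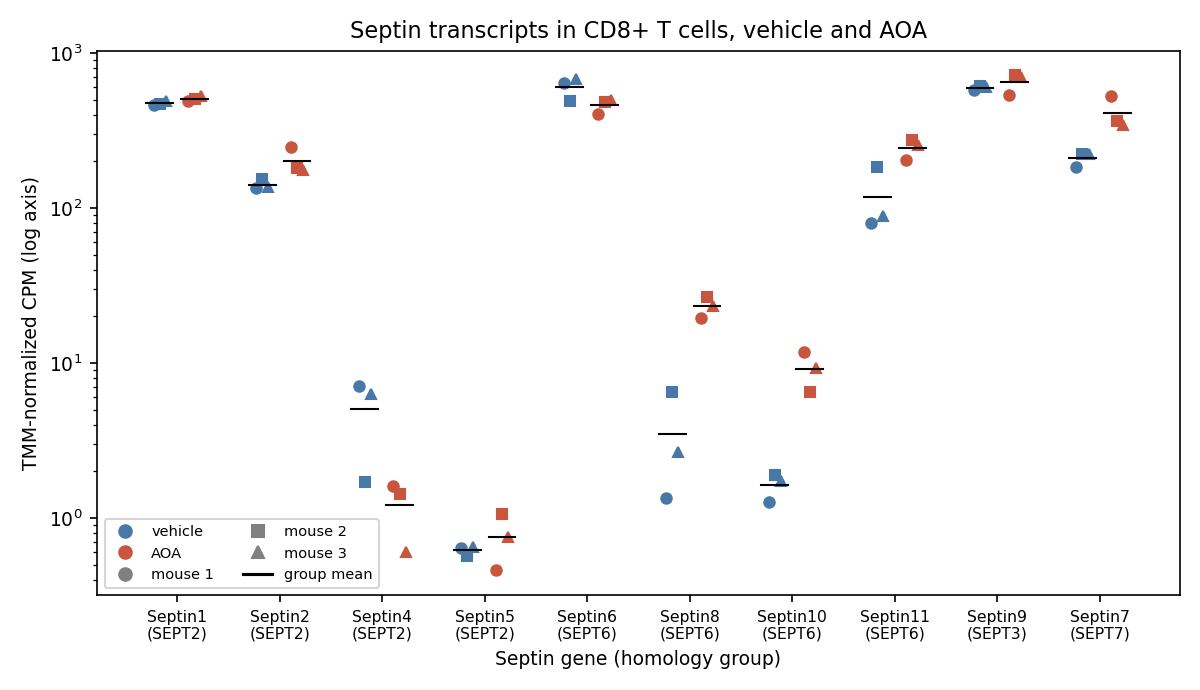
Normalised level of each septin in each library (CPM, log axis), grouped by homology group, with vehicle in blue and AOA in red, the symbol giving the mouse and the bar the group mean of 3. Septin8 and Septin10 stood at 1.27 to 6.47 CPM in the vehicle libraries and at 6.50 to 26.6 in the AOA libraries, whereas Septin1 lay between 465 and 531 CPM in all 6.

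In the SEPT2 group, Septin1 was the most abundant septin per length, and its level differed little between the groups. This septin is known mainly from lymphocytes and other blood cells. The gene lies on chr7:127212709-127232985 of the minus strand (GRCm38.p6). Septin1 measured 465, 471 and 487 CPM in vehicle 1 to 3 and 488, 505 and 531 CPM in AOA 1 to 3. The AOA libraries all lay above the vehicle libraries, by a narrow margin. The log2 fold change was 0.10 ± 0.13 (SE, n = 3 per group) and Septin1 was not called.

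Septin2, a core rod subunit that binds non-muscle myosin II, was higher with AOA in each mouse. It lies on chr1:93478981-93509733 of the plus strand. Septin2 measured 135, 154 and 136 CPM with vehicle and 249, 183 and 175 CPM with AOA. No AOA library reached down to the vehicle range, and AOA 1 stood well above the others. Means were 142 ± 10.5 and 202 ± 40.8 CPM (SD, n = 3), a 1.43-fold difference. The log2 fold change of 0.52 ± 0.16 (SE) became 0.34 without AOA 1, and Septin2 was no longer called without vehicle 1 (0.50) or vehicle 3 (0.51).

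Septin4 was the only septin called lower. Its ARTS isoform is known for promoting apoptosis, and the gene is also known from neurons and sperm. It lies on chr11:87566689-87590543 of the plus strand. The counts were small, with 89, 27 and 117 reads in vehicle 1 to 3 and 35, 27 and 12 in AOA 1 to 3. These gave 7.06, 1.71 and 6.35 CPM with vehicle and 1.61, 1.43 and 0.605 CPM with AOA. Vehicle 2 lay just above the highest AOA library, far below the other vehicle libraries. The log2 fold change was -2.04 ± 0.55 (SE), and within mice the log2 difference was -2.06, -0.24 and -3.17. It was -2.42 without vehicle 2 and -1.71 without vehicle 1. The filter of at least 10 CPM in 3 libraries removed it.

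Septin5, known from neurons and platelets, where it takes part in exocytosis, was barely detected. It lies on chr16:18621811-18629938 of the minus strand. Septin5 had 8, 9 and 12 reads with vehicle and 10, 20 and 15 with AOA, or 0.635, 0.571 and 0.651 against 0.460, 1.06 and 0.757 CPM. The groups overlapped and the gene was not called. Exons of Gp1bb, the platelet glycoprotein gene on the same strand, cover 48.6% of Septin5 exon bases in GENCODE vM21, those of Gm49601 cover 56.3%, and 78.7% of the 75-base stretches of Septin5 transcripts also occur in these 2 genes. Its counts are therefore uncertain.

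In the SEPT6 group, the members at low and intermediate level were higher with AOA, while Septin6 itself measured lower without being called. Septin6, the usual partner between the SEPT2 and SEPT7 subunits of a rod, lies on chrX:36911272-36990036 of the minus strand. It measured 638, 492 and 678 CPM with vehicle and 402, 480 and 496 CPM with AOA. The groups overlapped, since vehicle 2 fell inside the AOA range. The log2 fold change was -0.39 ± 0.17 (SE), and within mice the difference was -0.66, -0.04 and -0.45. Without vehicle 2 it was -0.48, and Septin6 was then called lower. Exons of the antisense gene Gm15008 cover 3.12% of its exon bases, and although the library kit kept strand, whether the counting used it is not stated, so reads of the pair may be mixed.

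Septin8 had the largest difference of the family in the main fit. Without AOA 2 its log2 fold change was 2.61, under the 2.68 of Septin10. Septin8 is known from neurons, where it binds a vesicle fusion protein, and lies on chr11:53519397-53549605 of the plus strand. Septin8 had 17, 102 and 49 reads in vehicle 1 to 3 and 426, 503 and 465 in AOA 1 to 3. It measured 1.35, 6.47 and 2.66 CPM with vehicle and 19.6, 26.6 and 23.5 CPM with AOA. The lowest AOA library was well above vehicle 2, the highest vehicle library. Means of 3.49 ± 2.66 and 23.2 ± 3.51 CPM (SD) differed 6.65-fold, with a log2 fold change of 2.71 ± 0.44 (SE). The change was 3.51 without vehicle 2 and 2.37 without vehicle 1.

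Septin10 was similar in level and in difference, with a tighter vehicle group. The gene lies on chr10:59141624-59221500 of the minus strand. Septin10 had 16, 30 and 32 reads with vehicle and 256, 123 and 185 with AOA. It measured 1.27, 1.90 and 1.74 CPM with vehicle and 11.8, 6.50 and 9.33 CPM with AOA. The AOA libraries spread more widely than the vehicle libraries and stayed well clear of them. Its log2 fold change was 2.48 ± 0.31 (SE), or 5.62-fold, and ranged from 2.26 to 2.68 over 12 alternatives. The filter of at least 10 CPM in 3 libraries removed it. The absolute change of Septin8 was at percentile 96.2 of all genes tested and that of Septin10 at percentile 95.1.

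Septin11, known to associate with actin bundles, lies on chr5:93090995-93182368 of the plus strand. It measured 79.7, 184 and 89.4 CPM with vehicle and 203, 274 and 257 CPM with AOA. All AOA libraries were above all vehicle libraries, and vehicle 2 was far above the other vehicle libraries. Means were 118 ± 57.8 and 245 ± 37.0 CPM (SD), and the log2 fold change was 1.05 ± 0.30 (SE). Without vehicle 2 the change was 1.57. Septin11 was no longer called without vehicle 1 (0.86), vehicle 3 (0.91) or AOA 2 (0.97).

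Of the vehicle libraries, vehicle 2 was nearest to the AOA mean for 8 of 10 septins, all but Septin1 and Septin5. It stood apart from both vehicle 1 and 3 for Septin2, Septin4, Septin6, Septin8 and Septin11, and close to vehicle 3 for Septin7, Septin9 and Septin10. This library also held the most Klrb1c and the lowest Cd8a, 654 CPM against 788 and 914 in vehicle 1 and 3. Its place among the septins does not extend to every gene, and the same count was not made over all genes. Among genes named below, vehicle 2 was the vehicle library nearest to the AOA mean for Flna, Cfl1, Actb and Myl12a. It was the farthest from that mean for Anln, Plk1 and Kif14, as for Cd8a.

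Septin9 and Septin7 are the sole members found of the SEPT3 and SEPT7 groups. Septin9, which sits within longer rods and binds actin and microtubules, lies on chr11:117199661-117362325 of the plus strand. It measured 576, 614 and 606 CPM with vehicle and 535, 717 and 703 CPM with AOA. AOA 1 lay below all vehicle libraries and AOA 2 and 3 above them, so the groups overlapped. The log2 fold change was 0.12 ± 0.16 (SE), not called.

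Septin7, which has no substitute within its group and is required for rods to form, was higher with AOA in each mouse. It lies on chr9:25251991-25308571 of the plus strand. Septin7 measured 183, 224 and 224 CPM with vehicle and 528, 365 and 343 CPM with AOA. The groups did not overlap, and AOA 1 was far above AOA 2 and 3. Means were 210 ± 23.8 and 412 ± 101 CPM (SD), a 1.96-fold difference. The log2 fold change was 0.97 ± 0.19 (SE) and 0.75 without AOA 1, and it ranged from 0.75 to 1.09 over 13 alternatives.

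**Figure D2:**
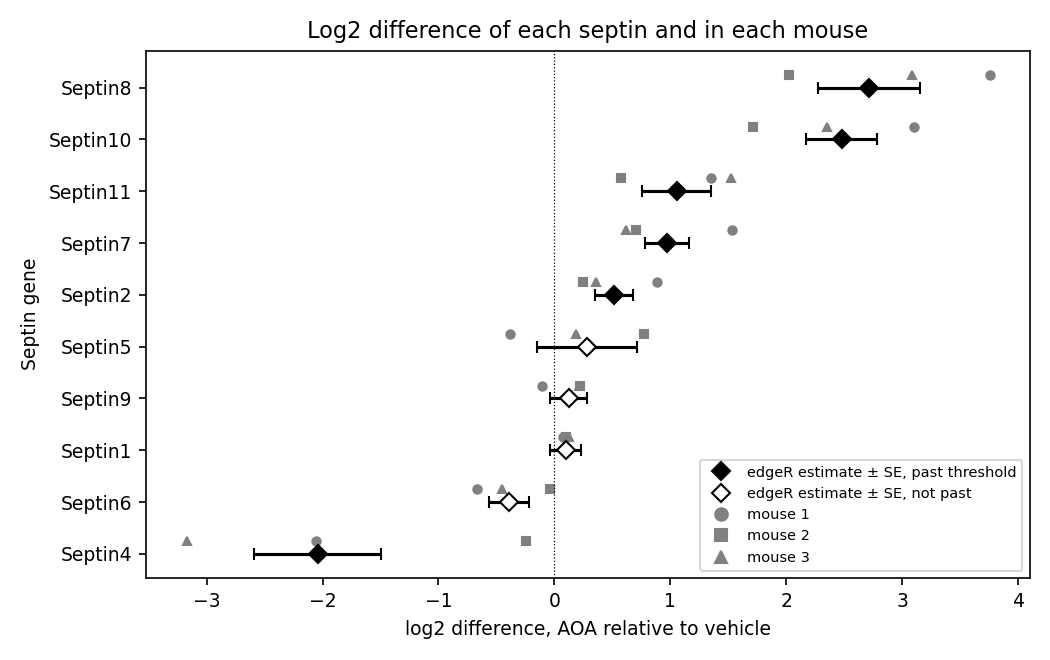
Log2 difference of each septin between AOA and vehicle, as the edgeR estimate with its standard error (diamonds, filled where called) and as the AOA minus vehicle difference within each of the 3 mice (grey symbols). All 3 mice lie to the right of 0 for the 5 septins called higher, and the mice of Septin4 spread from -0.24 to -3.17.

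The difference within a mouse was not even across the family. In mouse 1 it was above that of mice 2 and 3 for Septin2 (0.89, 0.25 and 0.36), Septin7 (1.53, 0.70 and 0.62), Septin8 (3.75, 2.02 and 3.09) and Septin10 (3.10, 1.72 and 2.35). For Septin11 it was 1.35, 0.57 and 1.52, with mouse 3 highest. Mouse 1 had the lowest difference for Septin1, at 0.07, Septin5, at -0.39, Septin6, at -0.66, and Septin9, at -0.11.

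Levels can be set side by side between septins only per length, as RPKM (CPM per kilobase of the gene length in the deposited table). With vehicle, Septin1 stood at 327 ± 8.08 RPKM, Septin9 at 140 ± 4.72, Septin6 at 90.0 ± 14.6, Septin7 at 83.2 ± 9.39 and Septin2 at 42.5 ± 3.14 (SD, n = 3). Septin11 followed at 10.6 ± 5.19 RPKM, and Septin4, Septin10, Septin8 and Septin5 lay between 2.72 and 0.291. In this order Septin6 and Septin7, Septin10 and Septin8, and Septin8 and Septin5 were neighbours whose libraries overlapped. With AOA, Septin7 stood in the second place at 163 ± 40.0 RPKM, overlapping Septin9 at 153 ± 23.8, and Septin6, at 68.6 ± 7.44, overlapped Septin2, at 60.7 ± 12.2. Septin8 and Septin10, at 3.91 ± 0.590 and 3.47 ± 0.993 RPKM, overlapped each other and lay above Septin4, at 0.654 ± 0.288, which overlapped Septin5. The place of Septin7 rests on the length used. The deposited table gives it 2530 bases, whereas its GENCODE exons cover 11631, and with GENCODE lengths for all 10 septins Septin7 ranked 5 of 10 in either group and 6 of 10 kept their vehicle rank.

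The summed septin RPKM was 697 ± 23.2 with vehicle and 825 ± 6.70 with AOA (SD, n = 3), 1.18-fold higher. Septin7 made up 10.7%, 12.7% and 12.3% of the sum in vehicle 1 to 3 and 25.1%, 17.6% and 16.5% in AOA 1 to 3. The AOA shares all exceeded the vehicle shares, with that of AOA 1 far above the others. The SEPT2 group held 53.4% ± 0.639 with vehicle and 49.9% ± 0.837 with AOA, the SEPT6 group 14.6% ± 1.21 and 11.9% ± 1.33, and the SEPT3 group 20.1% ± 0.493 and 18.5% ± 3.01. With GENCODE lengths the SEPT7 share was 4.66% and 7.97% and the SEPT2 share 55.7% and 55.0%. The rise of the SEPT7 share kept its direction, at a lower level, while the SEPT2 difference shrank. Without division by length the shares were 28.8% and 28.4% for SEPT2, 33.6% and 29.3% for SEPT6, 27.8% and 25.9% for SEPT3 and 9.74% and 16.5% for SEPT7, so that SEPT6 was the largest group with either treatment.

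**Figure D3:**
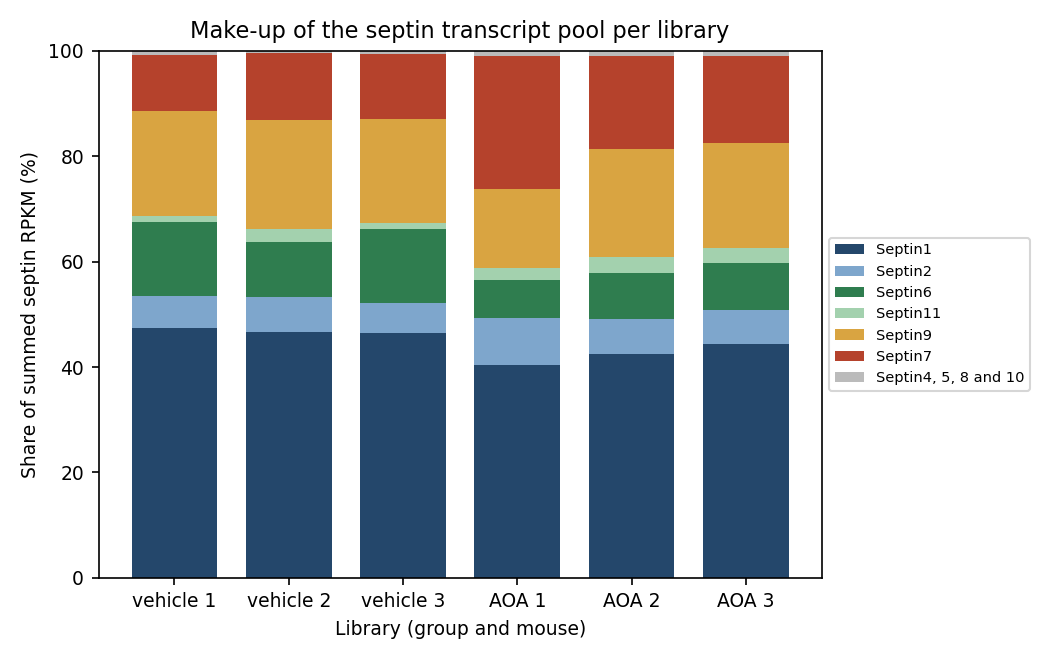
Share of each septin in the summed septin RPKM of each library (percent, stacked bars that add to 100). The Septin7 segment takes 10.7% to 12.7% in the vehicle libraries and 16.5% to 25.1% in the AOA libraries, and Septin4, Septin5, Septin8 and Septin10 together form the thin segment at the top.

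Ratios within a library do not depend on its scaling. The ratio of Septin7 to Septin6 RPKM, rod partners that touch each other, was 0.759, 1.21 and 0.874 with vehicle and 3.48, 2.01 and 1.83 with AOA. The ratio of Septin7 to Septin9 was 0.535, 0.616 and 0.622 with vehicle and 1.66, 0.858 and 0.822 with AOA. Both ratios were higher in all AOA libraries, most of all in AOA 1. Their level rests on the length of Septin7. With GENCODE lengths the ratio to Septin6 was 0.244, 0.388 and 0.281 with vehicle and 1.12, 0.647 and 0.588 with AOA, and that to Septin9 was 0.207 to 0.240 and 0.317 to 0.643. A change of length multiplies a ratio by the same factor in every library, so the order of the libraries could not change. With GENCODE lengths Septin7 was above Septin6 in AOA 1 alone. Within the SEPT6 group, the ratio of Septin11 to Septin6 was 0.0751, 0.225 and 0.0792 with vehicle and 0.303, 0.343 and 0.311 with AOA. With GENCODE lengths it was 0.130, 0.391 and 0.138 with vehicle and 0.526, 0.596 and 0.540 with AOA. Vehicle 2 came closest to the AOA libraries, an order that the choice of length cannot change.

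Promoter sequence is shown for 3 septins that differed between the groups, the 250 bases before the start of the gene, from RefSeq on GRCm38.p6 in the direction of the gene. Septin10 (chr10:59221501-59221750, minus strand) and Septin7 (chr9:25251741-25251990, plus strand) were higher with AOA, and Septin4 (chr11:87566439-87566688, plus strand) was lower. Capitals mark matches, on either strand, to E2F (TTTCCCGC or TTTGGCGC), CHR (TTTGAA) or CCAAT, letters known from promoters of cell cycle genes.
Septin10: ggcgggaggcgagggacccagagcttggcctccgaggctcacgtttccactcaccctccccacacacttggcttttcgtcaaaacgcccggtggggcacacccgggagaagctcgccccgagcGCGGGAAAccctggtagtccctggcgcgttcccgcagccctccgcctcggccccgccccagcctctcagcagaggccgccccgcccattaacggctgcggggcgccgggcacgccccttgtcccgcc
Septin7: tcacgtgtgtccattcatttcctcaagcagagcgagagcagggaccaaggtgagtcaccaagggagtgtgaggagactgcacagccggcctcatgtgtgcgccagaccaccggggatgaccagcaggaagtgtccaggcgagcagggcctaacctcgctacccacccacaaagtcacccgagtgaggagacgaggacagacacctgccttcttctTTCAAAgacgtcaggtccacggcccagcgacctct
Septin4: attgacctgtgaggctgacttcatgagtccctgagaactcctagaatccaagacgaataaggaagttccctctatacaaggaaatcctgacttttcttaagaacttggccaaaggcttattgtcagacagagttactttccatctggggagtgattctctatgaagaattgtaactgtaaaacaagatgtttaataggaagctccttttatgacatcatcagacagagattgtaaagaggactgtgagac
The Septin10 window held 1 E2F match, 26 CpG and 72.4% G or C, the Septin7 window 1 CHR match, 12 CpG and 59.6%, and the Septin4 window no match, 1 CpG and 40.0%. These windows were printed because they lie wholly outside the gene, and other starts of the same genes differed. RefSeq gave 16 windows for 7 of the 10 septins. The other Septin7 window held no match, 36 CpG and 78.8% G or C. The other 3 Septin4 windows had 55.2% to 60.8% G or C, and 1 of them held 2 CCAAT matches. Septin2 and Septin8, both higher with AOA, held no E2F, CHR or CCAAT match in any window, and Septin11, also higher, held 1 CHR match in its only window. No contrast between higher and lower septins can be read from these windows. Of all 32851 promoter windows, 1.3% held the E2F letters, 16% CHR and 33.8% CCAAT, and of the 16 septin windows 1, 2 and 2 did. The GC box GGGCGG was in 9 of the 16 and in 32.7% of all, and the cAMP response letters TGACGTCA in 0 of the 16 and 1.55% of all. Such matches describe letters and are no measure of binding.

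The genes that work with septins differed by list. These lists too were chosen with earlier results of these data known, so their counts and adjusted p values are descriptions. Of 20 genes of the cytokinetic ring and midbody, 19 were called higher and none lower, and the median change was 2.20 (log2), so 95% were called beside 53.0% of all genes. Anln, the anillin that brings septins to the ring, measured 14.8, 10.4 and 16.99 CPM with vehicle and 77.6, 71.1 and 76.3 CPM with AOA (log2 fold change 2.41 ± 0.19, edgeR adjusted p = 2.4e-05). The kinase Plk1 rose from 31.0 ± 5.90 to 166 ± 33.04 CPM, the kinesin Kif14 from 17.6 ± 4.39 to 97.2 ± 13.8 and Birc5, of the chromosomal passenger complex, from 37.5 ± 8.64 to 307 ± 51.9 (SD). Rhoa, the GTPase that triggers ring assembly, rose by less, with a log2 fold change of 0.46 ± 0.14 (edgeR adjusted p = 0.0178), a call lost without vehicle 1 or AOA 3. The gene not called was Rock1, at -0.31, named after its values were seen. The septin median was 0.40, with members from -2.04 to 2.71.

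The next list had 12 genes of Cdc42 and its effectors, not all of which bind septins. Its 9 tested genes had a median log2 fold change of 0.03, and 2 were called, both higher. This is 22.2% of those tested, beside 53.0% of all genes. Cdc42 measured 534, 652 and 583 CPM with vehicle and 908, 879 and 853 CPM with AOA (log2 fold change 0.58 ± 0.15, edgeR adjusted p = 0.0097). Pak1, a kinase under Cdc42 named here after its values were seen, was under 10 CPM in every library, with a change of 2.18 ± 0.62. Without AOA 1 or AOA 3, Cdc42 was the only gene of this list called. The septin-binding effectors Cdc42ep3 and Cdc42ep4, also named after their values were seen, were not called (-0.20 and -0.05), and Cdc42ep1, Cdc42ep2 and Cdc42ep5 had no row.

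Of 19 actin and myosin cortex genes tested of 20, 10 were called higher and 2 lower, and the median change was 0.46 (log2). This is 63.2% called, near the 53.0% of all genes. Leaving out vehicle 1, vehicle 3 or AOA 3 left 6 higher and 0 lower, beside 2519 to 2608 and 2433 to 2517 of all genes. Flna, an actin crosslinker, rose from 515 ± 105 to 1411 ± 152 CPM, Cfl1, which severs actin filaments, from 639 ± 105 to 1470 ± 68.8, and the myosin light chain Myl12a from 169 ± 35.2 to 330 ± 73.6 (SD). Actb rose by 0.72 ± 0.20 on the log2 scale (edgeR adjusted p = 0.0138), a call lost without vehicle 1, vehicle 3 or AOA 3. Myh9, the non-muscle myosin II heavy chain, was not called at -0.08 ± 0.24, with 920, 1541 and 1841 CPM in AOA 1 to 3 around the vehicle values of 1423 to 1587, and gave 0.16 without AOA 1. Diaph1, a formin, and Arhgef18, which septins are known to bind and hold inactive, fell by 0.40 and 0.44 on the log2 scale (edgeR adjusted p = 0.0276 and 0.0339), and both calls were lost on leaving out vehicle 1, vehicle 3, AOA 2 or AOA 3. That of Arhgef18 was also lost without AOA 1, and that of Diaph1 with mouse as a block (adjusted p = 0.0606).

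Of 17 ESCRT genes tested of 18, which cut the midbody bridge, 3 were called higher and 2 lower, and the median change was 0.05 (log2). This is 29.4% called, beside 53.0% of all genes. Chmp3 rose from 68.9 ± 3.34 to 104 ± 10.1 CPM and Chmp1b fell from 84.3 ± 2.68 to 57.3 ± 5.46 (edgeR adjusted p = 0.0038 and 0.0051). The changes of Tsg101 (0.39), Vps4a (0.34) and Chmp1a (-0.36) were called as well (edgeR adjusted p = 0.0450, 0.0329 and 0.0286). With mouse as a block these 3 were no longer called, at adjusted p = 0.0654, 0.0711 and 0.0557, nor were they when vehicle 1, vehicle 3, AOA 2 or AOA 3 was left out. Tsg101 was also not called without AOA 1, with limma or with the filter of 10 CPM.

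**Figure D4:**
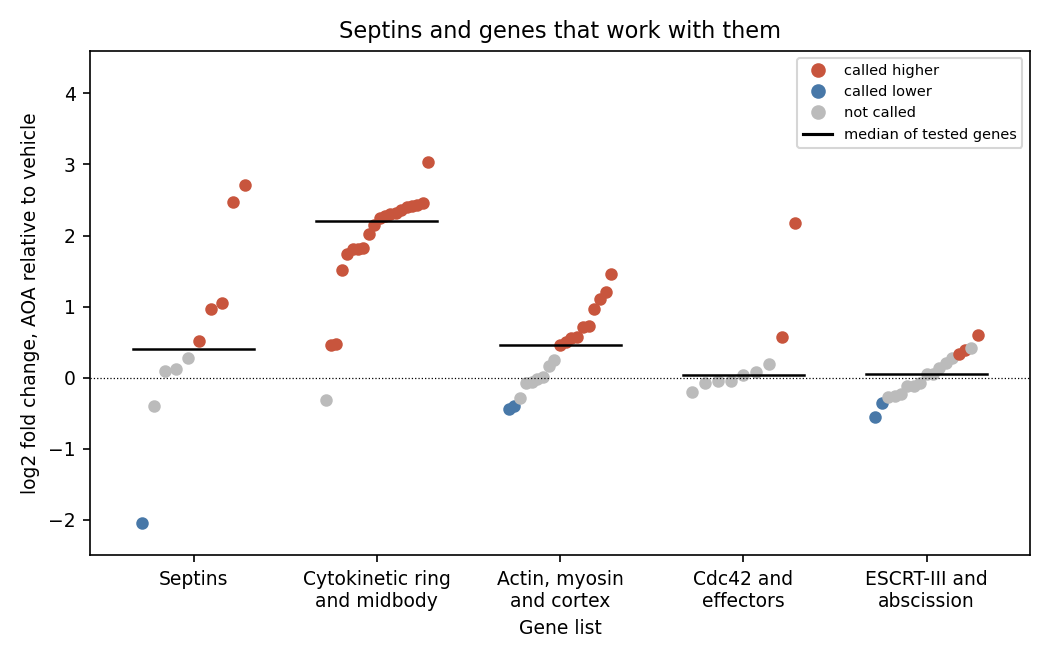
Log2 fold change with AOA of the septins and of the tested genes of the 4 lists, coloured by call, with the median as a bar. The cytokinesis genes sit mostly between 1.5 and 3.0 with a median of 2.20, the septins spread from -2.04 to 2.71, and the Cdc42 and ESCRT lists centre near 0, at medians of 0.03 and 0.05.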

How the data were processed

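RNA of 6 cultures was sequenced from stranded Illumina mRNA libraries, and per the study's methods uniquely mapped reads were counted. The authors deposited raw counts per gene, beside the symbol, length and Entrez number of each. The submitters' processing notes name bcl2fastq, STAR, featureCounts, DESeq2 and the build mm10. Tool versions, annotation and the strand setting of the counting were not given in the sources used here, so shared exons (Septin5) may split or lose reads.

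Groups and mice came from the labels. The members and the gene lists were chosen with earlier results of these data known. The analysis used edgeR 4.0.16 (R 4.3.3). Its filterByExpr with a minimum count of 10 kept 11759 of 11922 genes, followed by TMM, the robust quasi-likelihood test without a block, and Benjamini-Hochberg adjustment over all genes at 0.05. The SE is the log2 fold change over the square root of the F statistic. Differences within a mouse are in log2 CPM with a prior count of 2. RPKM uses the deposited lengths.

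Every septin was named. From each list up to 3 called genes per direction were named, by size of change, provided that all 3 mice moved the same way and the higher mean reached 10 CPM, plus Anln, Cdc42, Rhoa, Myh9, Actb and the cell type markers. Rock1, Pak1, Cdc42ep3 and Cdc42ep4 were named outside this rule. Alternatives were DESeq2 1.42.0, limma 3.58.1 (voom), other size factors and filters, a log2 fold change of at least 1, the mouse as a block, each library left out, and, chosen after seeing the data, GENCODE vM21 exon lengths. Mice pair the samples by label, and deviations from the group means correlated within mice 1 to 3 at r = 0.0868, 0.189 and 0.194 across genes. On simulated counts of 11759 genes with 200 changed, edgeR recovered 65.1% of 2-fold and 95.9% of 4-fold changes in AOA against vehicle, with 6.44% false calls. The simulation changed far fewer genes than the 53.0% called in the data, and none of its libraries was made to stand apart. These rates therefore do not give the recovery or false share of the real comparison. Replicates differed by more than sampling noise. At total counts of 12881962 to 21997078, septins near 1 CPM rest on 8 to 35 reads.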

Additional observations from a re-analysis of the deposited data

How the results depend on the processing

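Of 127 alternative values of the septins, 120 kept direction and side of the threshold, 5 lost the call (Septin2 and Septin11), 1 gained it (Septin6) and 1 reversed: Septin5, at -0.027 without AOA replicate 2 and up to 0.55 without AOA replicate 1. Of 234 values of the partner genes, 200 kept both, 33 lost the call and 1 reversed: Myh9, at 0.16 without AOA replicate 1 and down to -0.30 without AOA replicate 3. With the mouse as a replicate block, 5 septins were called higher and 1 lower, as without it, beside 3126 and 3166 of all genes. The block left 8 cortex genes higher and 1 lower, and 1 ESCRT gene in each direction. With each library left out in turn, 3 to 5 septins were called higher (3 without vehicle 1 or 3) and 1 to 2 lower (2 without vehicle 2), beside 2519 to 3499 and 2433 to 3297 of all genes, 18 to 19 cytokinesis genes higher, 1 to 2 Cdc42 genes higher, 6 to 10 cortex genes higher and 0 to 2 lower, and 1 to 3 ESCRT genes higher and 1 to 2 lower. The filter of 10 CPM in 3 libraries called 4 septins higher, since Septin10 was not tested, 0 lower, since Septin4 was not, and 1 Cdc42 gene higher, since Pak1 was not. Of the 8876 genes kept by this filter, 2543 were called higher and 2380 lower. A minimum log2 fold change of 1 left 3 septins, 1 Cdc42 gene, 3 cortex genes and 0 ESCRT genes higher, 0 cortex and 0 ESCRT genes lower, and 1418 higher and 1663 lower of all genes. The median shift of the log2 fold change over genes, against the main fit, was under 0.04 in size in every refit. It was 0.0077 with median-of-ratios size factors and 0.0138 with total counts only. Shares of the homology groups without division by length are given with the shares. With GENCODE exon lengths, chosen after seeing the data, 6 of 10 septins kept their rank with vehicle. Septin4 and Septin5 had 8 to 117 reads in each library, and Septin8 and Septin10 had 16 to 102 in the vehicle libraries. Low read counts limit the estimates of all these septins.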
